A study of Mus musculus with 2 samples.

Results

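This section describes the genes of the extracellular matrix and its receptors in wild type and Pax6-/- mouse cortex: collagens, laminins, nidogens, elastic fibre proteins, fibronectin, thrombospondins, Sparc, lysyl oxidases, matrix metalloproteinases with their inhibitors, and integrins. The rule takes every probe set whose only symbol in GEO's platform annotation begins with one of the family names. It uses no signal value, but the families were chosen with earlier results of these data known. The pattern found 124 probe sets for 84 genes, among 12488 probe sets and 8251 genes in all. It also took in Itgb1bp1, which encodes an intracellular partner of an integrin tail and is no matrix protein; the gene is kept as a member and counted in no class. Family members with other spellings, such as Itgav and Hspg2, lie outside the pattern.

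RNA came from the cerebral cortex of NMRI embryos at stage E14.5, and 1 array was deposited for each genotype, wild type and Pax6-/-. The labels name neither the mutant allele nor the littermate status of the embryos. The series' design mentions 3 wild type and 3 mutant embryos, and whether their RNA was pooled is not given in the sources used here. With 1 array per genotype there is no replicate error and no test between genotypes, and no difference below has a p-value. Signals below are given in pairs, wild type first and mutant second. The labels' tissue was checked against 9 measured markers of cortical radial glia and neurons, of which all 9 lay above the signal filter described below. On these arrays 4 of the 9 were 2-fold lower in the mutant and 1 was 2-fold higher, with a median log2 ratio of −0.94, and Eomes was lowest at −3.44. The transcription factor gene Pax6 gave 1169 and 447, although its probe set may lie outside the altered part of the gene, in which case it would be no check of the labels. The mutant array had the higher median signal, 283.7 against 237.3.

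In the developing cortex the basement membrane lies beneath the meninges, where the endfeet of radial glia attach to it, and around the blood vessels. It is a sheet of laminin trimers and collagen IV networks tied together by nidogens and perlecan, and cells hold on to it through integrins and dystroglycan. Fibrillar collagens, fibronectin and elastic fibres are made mainly by meningeal and perivascular fibroblasts, so in whole cortex RNA these genes report on non-neural cells as well as on the neuroepithelium. In such bulk RNA, fewer cells of a type and less RNA per cell cannot be told apart.

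Most of the matrix and integrin genes had similar signals on both arrays. Each gene was read from its brightest probe set by mean signal. Of the 84 genes, 7 were 2-fold or more higher in the mutant, 5 were 2-fold or more lower, and 72 lay between. Those counts are 8.33% and 5.95% of the members. Over all 8251 genes, 6.84% were higher by that margin and 5.72% lower, so the members lay near the background in both directions. Their median log2 ratio, mutant over wild type, was 0.06 against 0.02 over all genes, and with quantile or loess scaling it was −0.05 or −0.04 against −0.01 for all genes. With either of these scalings the split of the members was 5 higher and 6 lower, and that of all genes was 5.15% and 7.33% or 5.02% and 7.43%. At a 1.5-fold threshold 16 members were higher and 9 lower, against 16.2% and 15.4% of all genes, and at 3-fold 2 were higher and 1 lower, against 1.5% and 1.02%. Ratios were formed after adding 81.5, the 25th percentile of the signals on both arrays, as a pseudocount to each signal, so every ratio understates the difference of a dim gene. Fold differences below are taken from these ratios and not from the quotient of the printed signals.

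The 7 genes on the higher side were Col11a2, Col2a1, Col15a1, Mmp16, Itga7, Col14a1 and Lama4, and the 5 on the lower side were Lama1, Thbs3, Mmp2, Fbln2 and Lamb1. In 8 of these 12 genes the weaker array lay below the pseudocount. Only Itga7 stood among the 27 members in the brighter range, from the 60th percentile of mean log2 signal upward, where 2.02% of 3903 genes were 2-fold higher and 3.41% 2-fold lower. Of those 27 members, 23 differed by no more than the technical spread, the SD between probe sets of a gene. It was 0.50 on the log2 scale for bright genes, above a signal of 445, and 0.68 for those in the middle and dim ranges, and says nothing of differences between embryos.

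**Figure D1:**
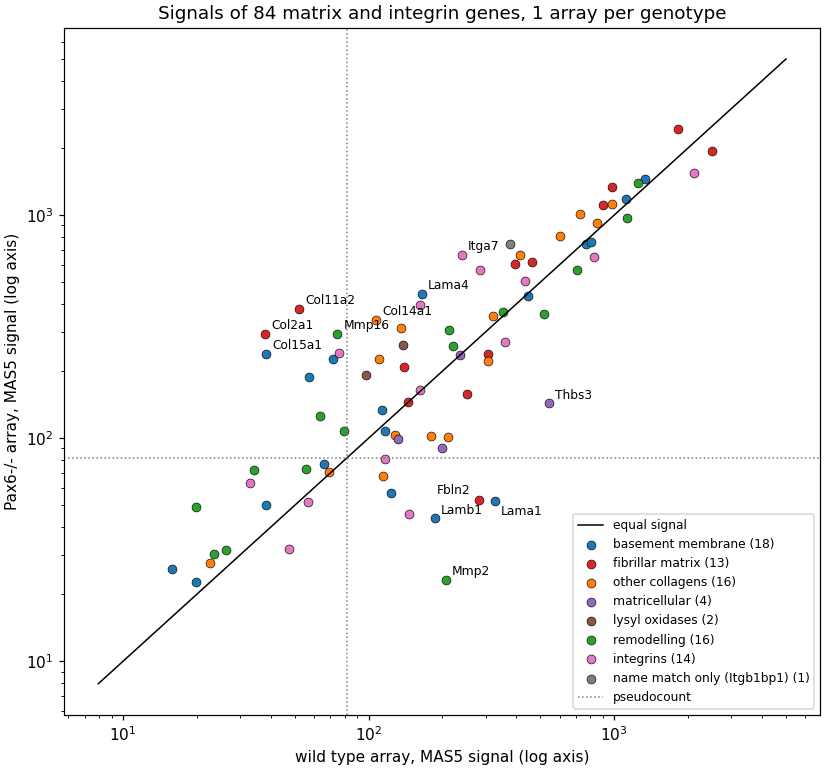
Each point is 1 of the 84 genes, with its MAS5 signal on the wild type array on the x axis and on the Pax6-/- array on the y axis (both log axes), coloured by class; dotted lines mark the pseudocount of 81.5, and the 12 genes at least 2-fold apart are named. Points at high signal follow the line of equal signal, and most named genes lie in the dimmer part of the plot.

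The signal filter kept genes whose mean log2 signal reached the 40th percentile, equivalent to a signal of 166. It passed 43 members and left out 41. Of the 43, 34 had both arrays above that level, 7 passed only through the mutant array and 2 only through the wild type array, so the members that passed are no neutral sample. Among them 4 were 2-fold higher and 1 was 2-fold lower, where 5.17% and 5.62% of all 5586 genes above the filter were. Of these members past 2-fold, only Itga7 had both arrays above a signal of 166. The remaining 7 of the 12 genes past 2-fold lay below the filter, 3 higher and 4 lower among 41 members (7.32% and 9.76%). Of all 2665 genes below the filter, 10.3% were 2-fold higher and 5.93% lower, with a median of 0.11.

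The basement membrane class held 18 genes. Of the 18, 2 passed 2-fold upward (Col15a1 and Lama4) and 2 downward (Lama1 and Lamb1), with a median log2 ratio of 0.04; over all genes 6.84% and 5.72% did. With the 50th percentile as pseudocount 0 of the 18 passed in either direction, where 1.22% and 1.56% of all genes did. Above the 60th percentile filter 0 of the 5 did, against 2.02% and 3.41% of all genes above it. The class median was −0.07 with quantile and with loess scaling.

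Col4a1 and Col4a2 encode the chains of the widespread collagen IV trimer. Col4a1 gave 769 and 743, a log2 ratio of −0.09. Col4a2 gave 1340 and 1447, a log2 ratio of 0.06. The pair are head-to-head neighbours in the genome, and both ratios lay well inside the technical spread of 0.50. The chains of more restricted collagen IV networks, Col4a3, Col4a4 and Col4a5, lay below the filter, with ratios of 0.09, −0.61 and 0.11. Col18a1, whose product carries the endostatin fragment at its end, gave 1116 and 1179 by its brightest probe set, and its 5 probe sets ran from −0.46 to 0.25.

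Laminins are trimers of an alpha, a beta and a gamma chain, and the 5 alpha chains give the trimers their receptor preferences. Lama5 gave signals of 802 and 759, a log2 ratio of −0.12, while its second probe set was at 0.40. Lamc1, the gamma chain shared by most laminins, gave 446 and 435, with ratios of −0.07 and 0.43 for its probe sets. Both of these chains were thus close to equal by their brighter probe set. The brighter Lamc1 probe set carries a suffix of the array, and without suffixed probe sets the Lamc1 ratio was 0.43.

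Lama1, the alpha chain of the early embryonic laminin, stood lowest in the class. Its 1 probe set gave 327 and 52.3, which was 3.15-fold lower in the mutant after the pseudocount. Lamb1, which pairs with Lama1 in that trimer, gave 186 and 43.9, which was 2.20-fold lower after the pseudocount. Its second probe set, at 98.3 and 56.1, had a ratio of −0.43. The brighter Lamb1 probe set carries the array's family suffix for probes shared with other sequences. Without suffixed probe sets the Lamb1 ratio was −0.43, short of 2-fold. For Lama1 and Lamb1 alike the mutant signal was under the pseudocount.

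Lama4, a chain of vascular and mesenchymal basement membranes, lay on the other side, with signals of 165 and 444. Its ratio was 1.05, and the second Lama4 probe set, at 20.9 and 232, gave 1.57. It was the only gene of the 84 with 2 probe sets past 2-fold, although the wild type signal of the second lay far under the pseudocount. The reported ratio fell short of 2-fold with quantile scaling (0.92), loess scaling (0.88) and the 50th percentile as pseudocount (0.70). Lama2 and Lamb2, both chains of muscle and perivascular laminins, had ratios of 0.92 and 0.96 from wild type signals of 57.3 and 71.5. Lama3 and Lamb3, chains of epithelial laminin, were dim on both arrays, with ratios of 0.09 and 0.05.

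Col15a1, a collagen at the outer face of vascular and muscle basement membranes, gave 38.2 and 238, a log2 ratio of 1.37 from 1 probe set. The nidogens, which bridge laminin to collagen IV, were dim: Nid1 gave 117 and 107, and Nid2 gave 19.9 and 22.6. Neither nidogen probe set reached the filter.

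The fibrillar matrix class held 13 genes, and 8 of them had a ratio above 0. Of these, 2 passed 2-fold, and 1 gene of the class passed it downward, against 6.84% and 5.72% over all genes. The class median was 0.31 on the log2 scale, about the size of the ratios of the collagen I genes. It was 0.26 with quantile scaling and 0.25 with loess scaling.

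Collagen I is the main collagen of fibrous tissue and is built from Col1a1 and Col1a2 chains. Col1a1 gave 140 and 208, a ratio of 0.34, and its second probe set was at 0.18. Col1a2 gave 1828 and 2436, a ratio of 0.35, and its second probe set was at 0.27. All 4 collagen I probe sets lay slightly on the higher side, but the second probe set of each gene was under the pseudocount on both arrays. These gave 17.8 and 34.3 for Col1a1 and 31.1 and 59.1 for Col1a2, so their agreement adds little. The bright Col1a2 probe set carries a suffix of the array, and without suffixed probe sets the Col1a2 ratio rests on the dim one.

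Col3a1, which co-assembles with collagen I in soft tissue, went the other way, with signals of 308 and 239 and a ratio of −0.33. Its remaining 2 probe sets had signals under 10 on both arrays. Col5a1, a chain that sets fibril diameter, gave 897 and 1105, a ratio of 0.23, and 0.67 by its second probe set. Its partner Col5a2 was nearly equal, at 144 and 146. No collagen I, III or V chain reached 2-fold.

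Collagens II, IX and XI form the thin fibrils of cartilage and of some embryonic tissues. Col2a1 gave 38.0 and 294, a 3.04-fold difference from 1 probe set, which carries a suffix, so the gene drops out without suffixed probe sets. Col11a2 gave 52.2 and 380, a 3.35-fold difference and the highest ratio of the 84 genes, at 1.74. Col11a1, the other collagen XI chain on the array, gave 464 and 618, a ratio of only 0.31. The collagen IX chains, which sit on the fibril surface, were near equality: Col9a2 at 0.33, Col9a3 at 0.13 and Col9a1 at −0.40. The large ratios in this set therefore came from genes with wild type signals below the pseudocount.

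Fn1, the fibronectin gene, gave 978 and 1336, a ratio of 0.37. Eln, the elastin gene, gave 396 and 607, a ratio of 0.48, and 0.19 by its second probe set. Fbn2, the fibrillin of embryonic microfibrils, was at −0.52. Fbln1, a fibulin of basement membranes and elastic fibres, gave 2497 and 1931 by its brightest probe set, a ratio of −0.40. Its other 3 probe sets lay between 0.19 and 0.81, and the mean of all 4 was 0.24. The brightest Fbln1 probe set carries a suffix, and without suffixed probe sets the Fbln1 ratio was 0.19. Fbln2 gave 283 and 52.9, a 2.80-fold lower value from 1 probe set.

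**Figure D2:**
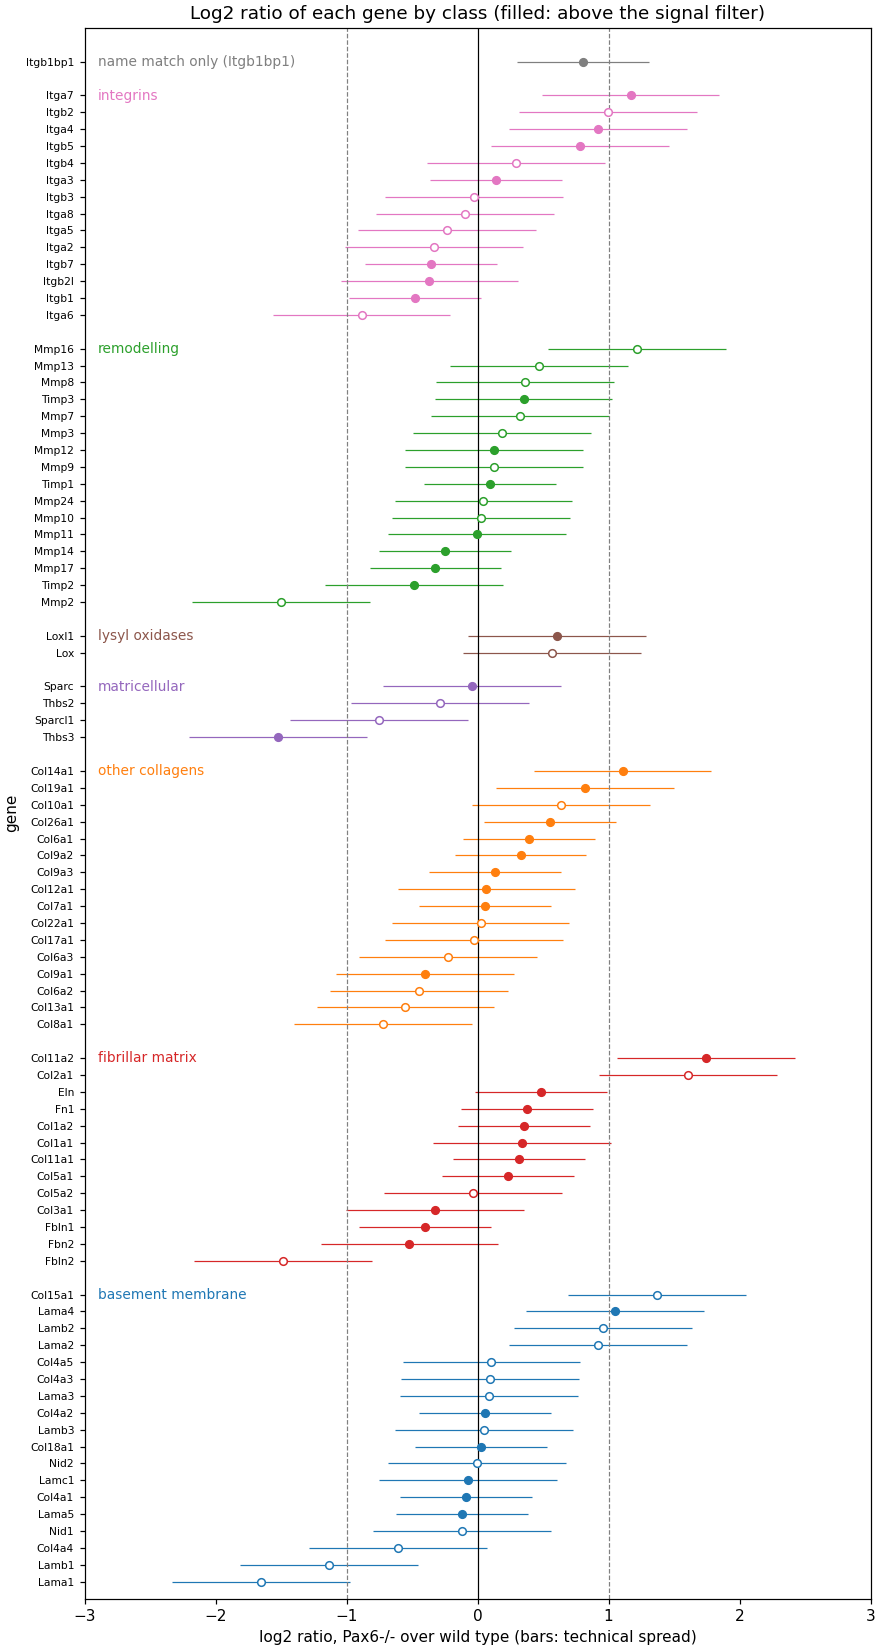
Log2 ratio of each of the 84 genes, Pax6-/- over wild type, on the x axis, with genes in rows grouped by class; bars show the technical spread (0.50 for bright genes, 0.68 for others), dashed lines mark 2-fold, and filled points lie above the signal filter. Within each of the larger classes most points lie between the dashed lines and genes fall on both sides of 0.

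The 16 remaining collagens had a median of 0.06, with 10 above 0 and 6 below, or 8 and 8 with quantile or loess scaling. Only Col14a1, a collagen that decorates fibrils, passed 2-fold, with signals of 108 and 339 and a ratio of 1.11; under those scalings its ratio fell short of 2-fold. Col7a1, the anchoring fibril collagen, gave 854 and 921. Col6a1 gave 725 and 1013, a ratio of 0.39 with 0.37 by its second probe set, whereas Col6a2 and Col6a3, its partners in the beaded filament, were dim and at −0.45 and −0.23. Col26a1 gave 412 and 665, a ratio of 0.55, and Col19a1 gave 135 and 314, a ratio of 0.82. The hypertrophic cartilage collagen gene Col10a1 was at 0.64, and Col12a1, Col17a1 and Col22a1 were between −0.03 and 0.07. Col8a1, a collagen of vessel walls, was lowest in the set at −0.72. The 31 collagen chains of all classes together included 4 that were 2-fold higher and 0 that were 2-fold lower, with a lowest ratio of −0.72. Over all genes the shares were 6.84% and 5.72%. With quantile or loess scaling 3 chains were higher, against 5.15% or 5.02% of all genes. With the 50th percentile as pseudocount 1 was, against 1.22%. Above the 40th percentile filter 2 of 18 chains were higher and 0 lower, against 5.17% and 5.62% of all genes above it. Those 2, Col11a2 and Col14a1, passed the filter only through the mutant array, where they are high, so this count is no separate check. Above the 60th 0 of 11 were higher and 0 lower, against 2.02% and 3.41%. Without a pseudocount 5 of the 31 were higher and 2 lower, against 15.6% and 11.4% of all genes.

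The matricellular class, proteins that tune adhesion without forming fibres, held 4 genes, and all 4 had a ratio below 0 except that Sparc turned to 0.00 without centring. Thbs3, a thrombospondin gene, gave 544 and 143, which was 2.87-fold lower after the pseudocount. Sparc, which binds collagen and marks vascular and meningeal cells strongly, was equal at 235 and 236. Sparcl1, a glial and vascular relative of Sparc, gave 199 and 90.4, and Thbs2 gave 132 and 99.0. The lysyl oxidases, which cross-link collagen and elastin, lay on the higher side: Lox gave 97.7 and 192 and Loxl1 gave 138 and 263, with ratios of 0.57 and 0.60. Neither passed 2-fold, though the dimmer Lox probe set was at 1.26.

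Col11a2 and Thbs3 were the members that stayed past 2-fold under each of the 5 alternatives able to change their ratio (centring, scaling and pseudocount), and their upstream sequences are shown for that reason. The other alternatives return the same ratio for a gene with 1 probe set, and both genes pass the 40th percentile filter through their stronger array alone. The 250 bases before each annotated start are from RefSeq on GRCm38.p6, plus strand, at chr17:34038888-34039137 for Col11a2 and chr3:89214930-89215179 for Thbs3. Capitals mark TATAAA and the GC box GGGCGG on either strand.
Col11a2: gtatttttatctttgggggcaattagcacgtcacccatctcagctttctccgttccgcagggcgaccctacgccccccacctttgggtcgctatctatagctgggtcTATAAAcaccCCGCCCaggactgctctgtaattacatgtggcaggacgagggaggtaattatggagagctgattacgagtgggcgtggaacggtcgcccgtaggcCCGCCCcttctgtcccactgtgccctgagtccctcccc
Thbs3: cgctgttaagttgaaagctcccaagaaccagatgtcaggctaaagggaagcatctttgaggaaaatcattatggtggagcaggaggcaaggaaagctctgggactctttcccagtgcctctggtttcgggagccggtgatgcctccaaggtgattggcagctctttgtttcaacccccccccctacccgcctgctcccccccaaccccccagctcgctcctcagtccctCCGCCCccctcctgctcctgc

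RefSeq windows from 250 bases before to 50 after the start were found for 55 of the 84 genes, 63 windows in all. A string resembling part of a Pax6 site, TTCACGC from the paired domain consensus, was searched on both strands. It occurred in 0 of the 63 windows, while 1.26% of all 32851 windows held it. No match says only that these letters are absent from these windows. GGGCGG occurred in 33 of the 63 windows, or 52.4%, against 35.7% of all windows, and TATAAA in 12, or 19.0%, against 13.6%. Multiple windows of a gene overlap in places, so the windows are not independent.

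The remodelling class held 13 matrix metalloproteinase genes and 3 genes of their inhibitors, the Timps. Of these 16 genes, 1 passed 2-fold upward and 1 downward, or 6.25% each, near the 6.84% and 5.72% over all genes. Their median of 0.11 turned to −0.03 with quantile and −0.02 with loess scaling. Mmp2, a gelatinase that cuts collagen IV, gave 206 and 23.2, a 2.84-fold lower value, while its second probe set was at 13.1 and 26.0, a ratio of 0.14. Mmp16, a membrane-anchored protease, gave 74.6 and 293, a 2.33-fold higher value. Mmp14, the membrane-anchored activator of Mmp2, was bright on both arrays, at 1126 and 969, and Mmp17 gave 704 and 567. Mmp9, the other gelatinase, was dim, at 55.6 and 72.5.

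None of the inhibitors passed 2-fold by its brightest probe set. Timp1 gave 1253 and 1388, a ratio of 0.09, though its dim second probe set was at 1.06. Timp2, the partner of Mmp14 in activating Mmp2, gave 518 and 360, a ratio of −0.49. Timp3, which binds to the matrix, gave 213 and 306, a ratio of 0.35.

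Of the metalloproteinases, 6 lie as neighbours on chromosome 9, in the order Mmp13, Mmp12, Mmp3, Mmp10, Mmp8 and Mmp7, each at most 2 protein-coding genes from the next measured one. Their products include collagenases, stromelysins, matrilysin and macrophage elastase, which are kept low in most resting tissues. The ratios ran from 0.02 for Mmp10 to 0.47 for Mmp13. Of the 6, Mmp12 lay above the filter, at 220 and 258, and the highest signal of the other 5 on either array was 126, for Mmp13 in the mutant. All 6 were under 2-fold, and 5 of them lay below the filter.

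Some start site letters, which the rule did not use, recur in the windows of these 6 genes. On both strands, TATAAA was present in 6 of their 8 windows, at least 1 for each gene, and they account for 6 of the 12 member windows that held it. TGACTCA, the letters bound by AP-1, the Fos and Jun factor, was present in 5 of the 8 windows, in each of the 6 genes except Mmp8. The 63 member windows, which include these 8, held it in 6 (9.52%), and 5.2% of all windows held it. The 60 bases before the start are given for the 4 windows that hold TATAAA in that stretch, chosen for it; the stretches of the other 4 windows lack it. They lie on the plus strand of GRCm38.p6 (RefSeq), at chr9:7272454-7272513 for Mmp13, chr9:7445762-7445821 for Mmp3, chr9:7502282-7502341 for Mmp10 and chr9:7692030-7692089 for Mmp7. Capitals mark TATAAA and TGACTCA on either strand.
Mmp13: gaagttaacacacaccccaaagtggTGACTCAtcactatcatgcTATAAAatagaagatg
Mmp3: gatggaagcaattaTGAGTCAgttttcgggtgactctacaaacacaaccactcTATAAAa
Mmp10: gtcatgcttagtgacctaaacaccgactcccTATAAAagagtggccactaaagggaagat
Mmp7: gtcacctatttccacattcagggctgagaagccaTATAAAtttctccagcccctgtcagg

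Integrins are receptors made of an alpha and a beta subunit. The 14 integrin genes, 7 alpha and 7 beta, had a median log2 ratio of −0.06, with 6 above 0 and 8 below; it was −0.27 with quantile scaling and −0.21 with loess scaling, and 0.14 over the 7 integrins above the filter. Only Itga7 passed 2-fold, or 7.14% of the 14 upward and 0 downward, against 6.84% and 5.72% over all genes.

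Itgb1, the beta chain shared by the receptors for laminin, collagen and fibronectin, gave 2119 and 1552. Its ratio was −0.48, and its second probe set was at −0.39. Both lay within the technical spread of 0.50. Both probe sets carry a suffix of the array, so Itgb1 drops out without suffixed probe sets. The suffix of the brighter one is the family suffix for probes shared with other sequences, so its value may include related transcripts.

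The alpha chains that pair with it for laminin differed among themselves. Itga3 was near equal, at 433 and 505. Itga6, the radial glial laminin receptor chain, gave 146 and 45.7, a ratio of −0.89. Itga7 gave 240 and 663 by its brightest probe set, a 2.25-fold difference, but its other 2 probe sets were at 0.28 and 0.38. The probe set past 2-fold carries the family suffix, and without suffixed probe sets the Itga7 ratio was 0.38. The fibronectin receptor chain Itga5 was dim, at 47.5 and 31.8, and the collagen receptor chain Itga2 was at −0.33. Itga8 had signals of 56.7 and 51.9.

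Among the other beta chains, Itgb5, which pairs with Itgav to bind vitronectin, gave 285 and 569, a ratio of 0.78 with 0.42 by its second probe set. The brighter Itgb5 probe set carries the family suffix. Itgb3 was equal at 162 and 165. Itgb2l, a relative of the leukocyte beta chain gene, gave 359 and 270. Itgb4, the hemidesmosome chain, was dim. Itgb7 gave 830 and 652, a ratio of −0.36, while its second probe set, at 42.1 and 321, was at 1.66 and the mean of both was 0.65. Itgb1bp1, the member outside the classes, gave 375 and 743, a ratio of 0.81, while its other 2 probe sets disagreed in sign, at 0.70 and −0.45.

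Itgb2 is the beta chain of leukocyte integrins, which microglia and macrophages carry. It gave 75.7 and 241, a ratio of 0.99, just short of 2-fold. Its alpha partners, which lie outside the symbol pattern, gave 0.25 for Itgam, 0.72 for Itgax and 0.83 for Itgal. Itga4, which leukocytes and other migrating cells carry, gave 162 and 395, a ratio of 0.92, and its 3 probe sets lay between 0.26 and 0.92. On the same arrays, of 10 microglial and macrophage markers 2 were 2-fold higher (Csf1r and C1qb) and 1 was 2-fold lower (Laptm5). The shares over all genes were 6.84% and 5.72%. The median log2 ratio of the 10 markers was 0.11, with 6 above 0 and 4 below. Their summed signals, not centred, were 2317 and 3765, of which Csf1r alone gave 372 and 1284. The part of these cells in the integrin values was not tested.

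Of the 84 genes, 30 had at least 2 probe sets. In 19 of the 30, or 63.3%, all probe sets had the same sign, against 47.9% of 2073 such genes over the whole array. The range between a gene's probe sets had a median of 0.52 among the 30 and 0.62 among the 2073. Of the 12 genes past 2-fold, 8 were measured by 1 probe set. The other 4 were Lama4, Lamb1, Itga7 and Mmp2: the sign was shared in the first 3 and mixed in Mmp2. Among all member probe sets, 11 of 124 were 2-fold higher and 5 were 2-fold lower, where 7.01% and 5.53% of 10833 probe sets with 1 symbol were.

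**Figure D3:**
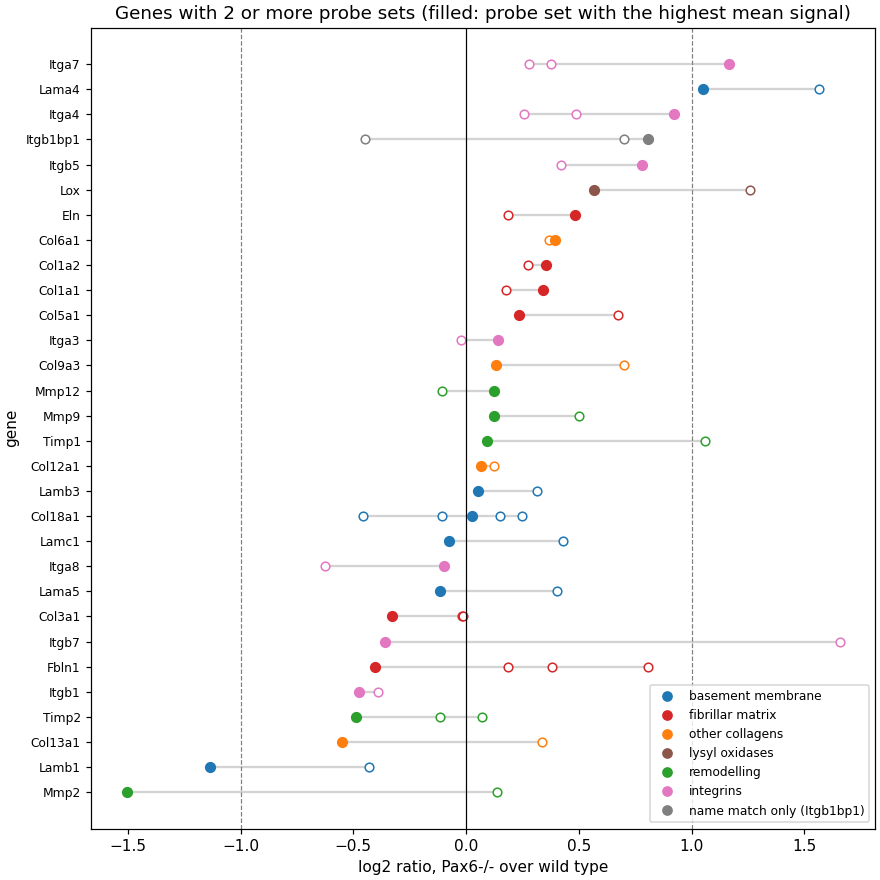
Log2 ratio of every probe set (x axis) for the 30 genes with 2 or more, 1 gene per row, ordered by the brightest probe set (filled) and coloured by class; open points are the other probe sets and dashed lines mark 2-fold. Only Lama4 has 2 points past a dashed line, and the widest gap, in Itgb7, runs from −0.36 to 1.66.

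The ratios of neighbouring collagen genes were as follows. Col3a1 and Col5a2, adjacent on chromosome 1, were at −0.33 and −0.04. Col9a1 and Col19a1, also adjacent there, were at −0.40 and 0.82, and Col6a1 and Col6a2 on chromosome 10 were at 0.39 and −0.45, with Col18a1 nearby at 0.03. Col4a3 and Col4a4 were at 0.09 and −0.61, and Col4a1 and Col4a2 at −0.09 and 0.06. With 1 array per genotype these differences within pairs have no test.

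The 3 larger classes were set side by side. The fibrillar matrix median was 0.31, the basement membrane median 0.04 and the integrin median −0.06, against 0.02 for all genes. Under the 9 alternatives that gave medians, the fibrillar matrix median ran from 0.20 to 0.36, the basement membrane median from −0.07 to 0.10 and the integrin median from −0.27 to 0.14. With 13, 18 and 14 genes and no replicate arrays, these medians are a description of 2 arrays.

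**Figure D4:**
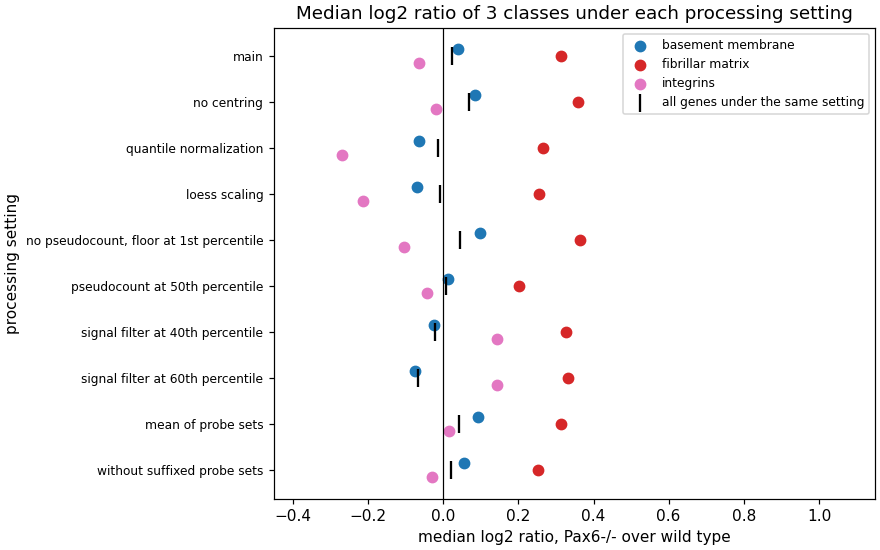
Median log2 ratio (x axis) of the basement membrane, fibrillar matrix and integrin genes under the reported setting, called main, and 9 alternatives (rows); black bars give the median of all genes under the same setting. The fibrillar matrix points lie between 0.20 and 0.36, while the other classes have points on both sides of 0.

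Other matrix and adhesion genes outside the pattern were taken from a list of 49 genes, of which 42 were measured. Of the 42, 1 passed 2-fold upward and 2 downward, with 28 above 0, 14 below and a median of 0.19. Those counts are 2.38% and 4.76%, against 6.84% and 5.72% over all genes. Adam17, a sheddase, gave 84.3 and 563. The lower genes were P4ha1, a collagen prolyl hydroxylase, at 219 and 56.0, and Lum, a fibroblast proteoglycan, at 165 and 39.1. Serpinh1, the collagen chaperone of the endoplasmic reticulum, gave 728 and 1224, a ratio of 0.64. Agrn and Dag1, a basement membrane proteoglycan and its dystroglycan receptor, were at −0.12 and −0.60, and Hspg2, the perlecan gene, was at 0.54. The intracellular adaptors of integrins included Tln1 at 0.20, Ilk at 0.37 and Vcl at −0.96.

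Cells that make much of this matrix could have been in the dissected tissue in different amounts. Of 14 measured meningeal and mesenchymal markers, 2 were 2-fold higher (Twist2 and Slc6a13) and 3 were 2-fold lower (Crabp2, Pdgfra and Lum), with a median of 0.08 and summed signals of 5430 and 5569. Igfbp2 alone gave 3693 and 3096 of those sums, so they mostly reflect that gene. Foxc1, a defining meningeal gene, had signals of 3.8 and 8.9. Of 12 endothelial markers, 2 were higher (Cldn5 and Tie1) and 1 was lower (Sox17), with summed signals of 2395 and 2768. Of 8 pericyte and smooth muscle markers, 1 was higher (Abcc9), with sums of 888 and 1354, of which Abcc9 alone gave 22.6 and 323. Acta2 was at 16.9 and 28.8. Of 3 platelet markers, 1 was higher (Gp5), with sums of 288 and 505, of which Gp5 alone gave 30.2 and 219. Over all genes 6.84% were 2-fold higher and 5.72% were 2-fold lower. The sums are of signals without centring, and the mutant array had the higher median signal. The part of these cells in the matrix values was not tested.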

How the data were processed

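The deposited values are MAS5 signal intensities on a linear scale, 1 per probe set and array, per the submitters' processing notes, which name MAS5 and no version, scaling target or detection calls. Symbols came from GEO's platform annotation: 10833 of 12488 probe sets had 1 symbol, and all 84 member genes matched the GRCm38.p6 gene table by gene ID.

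From these values, log2 of the signal plus a pseudocount of 81.5 (the 25th percentile) was taken, mutant minus wild type, and centred on its median over probe sets above the 40th percentile of mean log2 signal, which removed 0.05. No filter was applied to the members, since one on the mean of both arrays lets a dim gene pass through its stronger array. The technical spread is the SD of the difference between a gene's 2 brightest probe sets, divided by the square root of 2, in 3 equal groups of the 2073 genes that have them.

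Named genes are those past 2-fold, the 4 brightest of each class, genes with disagreeing probe sets of which 1 passed 2-fold, and chain partners; other members are given by value to account for each class and were chosen after their values were seen. The members and lists were chosen with earlier results of these data known. The steps were tested on simulated arrays with changes larger than 2-fold, planted only in bright probe sets, and with noise below the technical spread. That test does not bear on dim genes or on calls near 2-fold. Number of arrays, 1 per genotype, limits the precision. Python 3.11.15, numpy 2.4.6, pandas 2.3.3, statsmodels 0.14.6 and matplotlib 3.10.9 were used.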

Additional observations from a re-analysis of the deposited data

How the results depend on the processing

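The medians of the basement membrane, fibrillar matrix and integrin genes moved by less than their technical error (from the technical spread and the number of genes) under all 9 alternatives that gave them; the remodelling median went from 0.11 to −0.25 over the 5 genes above the 60th percentile filter. Counts of members past 2-fold, 7 higher and 5 lower, did move. Without a pseudocount (signals floored at the 1st percentile) they were 14 and 9, where 15.6% and 11.4% of all genes were, and with the 50th percentile as pseudocount 1 and 1, where 1.22% and 1.56% were. With the 40th percentile filter they were 4 and 1, where 5.17% and 5.62% of all genes were. The 60th percentile filter gave 1 and 0, where 2.02% and 3.41% were. Averaging all probe sets of each gene gave 6 higher and 3 lower, where 5.7% and 4.42% of all genes were. Without suffixed probe sets the counts were 5 higher and 4 lower among 78 members, where 6.66% and 5.78% of all genes were. At 1.5-fold they were 16 and 9, and at 3-fold 2 and 1. Quantile scaling gave 5 higher and 6 lower, and loess scaling 5 and 6. Of 335 recomputed log2 ratios of 41 named genes, 105 repeat the reported value because the alternative could not change it. Of the other 230, 212 stayed within 1 technical spread, 18 moved further and 0 genes past 2-fold changed sign. Lamb1 stayed past 2-fold in 4 of 7 alternatives, Col14a1 and Lama4 in 5 of 8, Mmp2 in 5 of 7 and Itga7 in 6 of 9. Except for Lamb1, these tallies include alternatives that could not change the ratio, so they overstate how well it held. Col14a1 fell short with quantile scaling (0.96), loess scaling (0.92) and the 50th percentile as pseudocount (0.67). No paired analysis was possible because each genotype has 1 array.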
